A study of Homo sapiens with 11 samples.

Results

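The aminoacyl-tRNA synthetases are the enzymes that load each tRNA with its amino acid, and 36 of their genes were followed among the 23608 gene symbols measured in A549, an established cell line from a human lung adenocarcinoma. The members were matched by gene symbol and split by compartment: the 16 symbols ending in 2 form the mitochondrial set and the other 20 the cytosolic set, in which GARS, KARS and QARS are counted as serving both compartments. The cells had been given CSC, a condensate holding the particles of cigarette smoke in solution, for 2 weeks (3 libraries), the vehicle DMSO for 2 weeks (3 libraries), CSC for 48 hours (3 libraries) or DMSO for 48 hours (2 libraries, replicates 2 and 3). The dose of CSC is labelled 20 µM, although molarity has no defined meaning for a mixture. No genetic change is labelled, and all libraries come from a single cell line grown on plates. Nothing in the labels shows the replicates to be separate cultures, and the p-values therefore reflect the spread among these libraries alone, which may be technical. The comparisons ask whether mRNAs of the charging enzymes differed after a long or a short exposure, and whether the cytosolic and the mitochondrial enzymes differed together.

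Most amino acids have a cytosolic synthetase that serves the ribosomes of the cytoplasm and a separate, nucleus-encoded synthetase that is imported into mitochondria to serve the ribosomes there. The enzymes fall into a pair of structural classes, class I and class II, and several cytosolic ones sit together in the multisynthetase complex. When amino acids run short or the endoplasmic reticulum is stressed, the kinases of the integrated stress response favour translation of the transcription factor ATF4, which is known to raise many cytosolic synthetase genes together with genes of amino acid synthesis such as ASNS, PSAT1 and PHGDH.

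Levels are given as FPKM, which counts fragments by transcript length and by the size of the library, so genes can be set side by side per length. Library sums ran between 338507 and 484053 FPKM, with CSC 2 weeks replicate 1 the highest, and 11742 to 12051 genes reached an FPKM of 1. The depth in reads is unknown. The bounds deposited with the values were narrowest for the members in CSC 2 weeks replicate 2, with a median width of 0.143 of the value, against 0.193 to 0.242 in the other libraries. In that library 4 member values lay above their own upper bound, against 0 in each other library, so its narrow bounds are not read as precision. No 2 libraries held identical values. All 5 epithelial marker genes had an FPKM of at least 1 in every library, with KRT8 at 573 to 1745 and KRT18 at 616 to 1765 FPKM. The alveolar type II markers SFTPB, SFTPC and NKX2-1 lay at or near 0, with at most 0.261 FPKM, while ABCA3, the other gene of that list, was present at 8.93 to 12.4 FPKM. The defining leukocyte and endothelial genes PTPRC, CD3E, PECAM1, CDH5 and VWF stayed under 0.1 FPKM, LYZ of the leukocyte list was at 0.217 to 1.36 FPKM, and the fibroblast genes COL1A2 and DCN were listed at 0 in all 11 libraries, while COL1A1 was present at 3.73 to 11.5 FPKM.

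The cytosolic set was the more abundant one. Averaged over the 11 libraries, its genes ran between 20.5 FPKM for FARSA, a subunit of the phenylalanine enzyme, and 76.0 FPKM for IARS, the isoleucine enzyme, with a median gene at 31.1 FPKM. The mitochondrial set ran between 2.04 FPKM for PARS2, the proline enzyme, and 69.1 FPKM for IARS2, with a median gene at 8.73 FPKM. By level IARS2 came next after IARS and TARS among the 36 genes, and the other 15 mitochondrial genes lay below the lowest cytosolic average, the highest of them being SARS2 at 13.7 FPKM. Neighbours in this order were mostly not separated: IARS exceeded TARS (72.2 FPKM) in 8 of 11 libraries, TARS exceeded IARS2 in 7, and QARS exceeded YARS in 5. A clear step lay between NARS (44.6 FPKM) and LARS (31.5 FPKM), which NARS exceeded in 11 of 11 libraries. The CARS level varied most among the cytosolic genes, with a highest library at 2.64 times the lowest, followed by GARS at 2.14 times and YARS at 2.10 times. All 36 genes passed the filter on low values, which asked 2 or more libraries to reach 1 FPKM and left 12506 genes to test. HARS and HARS2 lie head to head on chromosome 5, and their deposited loci share 295 bases. The deposited hg19 loci of MARS (chr12:57881736-57910438) and DDIT3 (chr12:57910371-57914300), an ATF4 pathway gene measured beside the synthetases, also share bases. The strand setting of the counting is not given in the sources used here, so reads of either pair cannot be told apart where they overlap.

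After 2 weeks of CSC, 5 of the 20 cytosolic synthetase mRNAs rose against DMSO, and of the 16 mitochondrial ones 0 were called in either direction. The 5 that rose were GARS, YARS, MARS, CARS and AARS, the enzymes for glycine, tyrosine, methionine, cysteine and alanine, by 1.66-fold to 1.83-fold. Calls were made with limma, with p adjusted after Benjamini-Hochberg over all 12506 genes and a threshold of 0.05, on log2(FPKM + 0.5), a scale on which every fold change below is given and which understates changes of weakly expressed genes. Of all genes tested, 3.01% were called higher and 2.40% lower in this comparison. In such bulk libraries, more RNA per cell and more cells carrying an RNA cannot be told apart.

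GARS, the glycine enzyme of cytosol and mitochondria (chr7:30634181-30673648 on hg19, the build of all expression loci given here), had 90.1, 74.8 and 87.5 FPKM in CSC libraries at 2 weeks, against 46.5, 47.2 and 43.6 FPKM in DMSO libraries. The lowest CSC library thus stood well above the highest DMSO library. The log2 change was 0.87 ± 0.17 (SE), with a limma adjusted p of 0.0125.

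YARS, the tyrosine enzyme (chr1:33240840-33283633), had 45.3, 34.3 and 39.8 FPKM in CSC libraries at 2 weeks and 26.1, 23.4 and 21.6 FPKM in DMSO libraries. The groups did not overlap. The log2 change was 0.73 ± 0.14 (SE), with a limma adjusted p of 0.0100.

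MARS, the methionine enzyme and the member of the multisynthetase complex that rose (chr12:57881736-57910438), had 75.3, 60.4 and 72.2 FPKM in CSC libraries at 2 weeks and 41.9, 40.3 and 39.3 FPKM in DMSO libraries. Its DMSO libraries lay within 3 FPKM of each other and below every CSC library. The log2 change was 0.76 ± 0.17 (SE), with a limma adjusted p of 0.0247.

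CARS, the cysteine enzyme (chr11:3022152-3078681), had 27.8, 25.1 and 28.8 FPKM in CSC libraries at 2 weeks and 16.2, 13.9 and 15.8 FPKM in DMSO libraries. AARS, the alanine enzyme (chr16:70286297-70323412), had 95.9, 78.7 and 90.7 FPKM in CSC libraries and 54.5, 53.0 and 50.0 FPKM in DMSO libraries. Neither gene's groups overlapped, and in both genes replicate 2 was the lowest of the CSC libraries, as it was for GARS, YARS and MARS. The log2 change was 0.81 ± 0.20 (SE) for CARS, with a limma adjusted p of 0.0384. For AARS it was 0.74 ± 0.19 (SE), with a limma adjusted p of 0.0390.

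**Figure D1:**
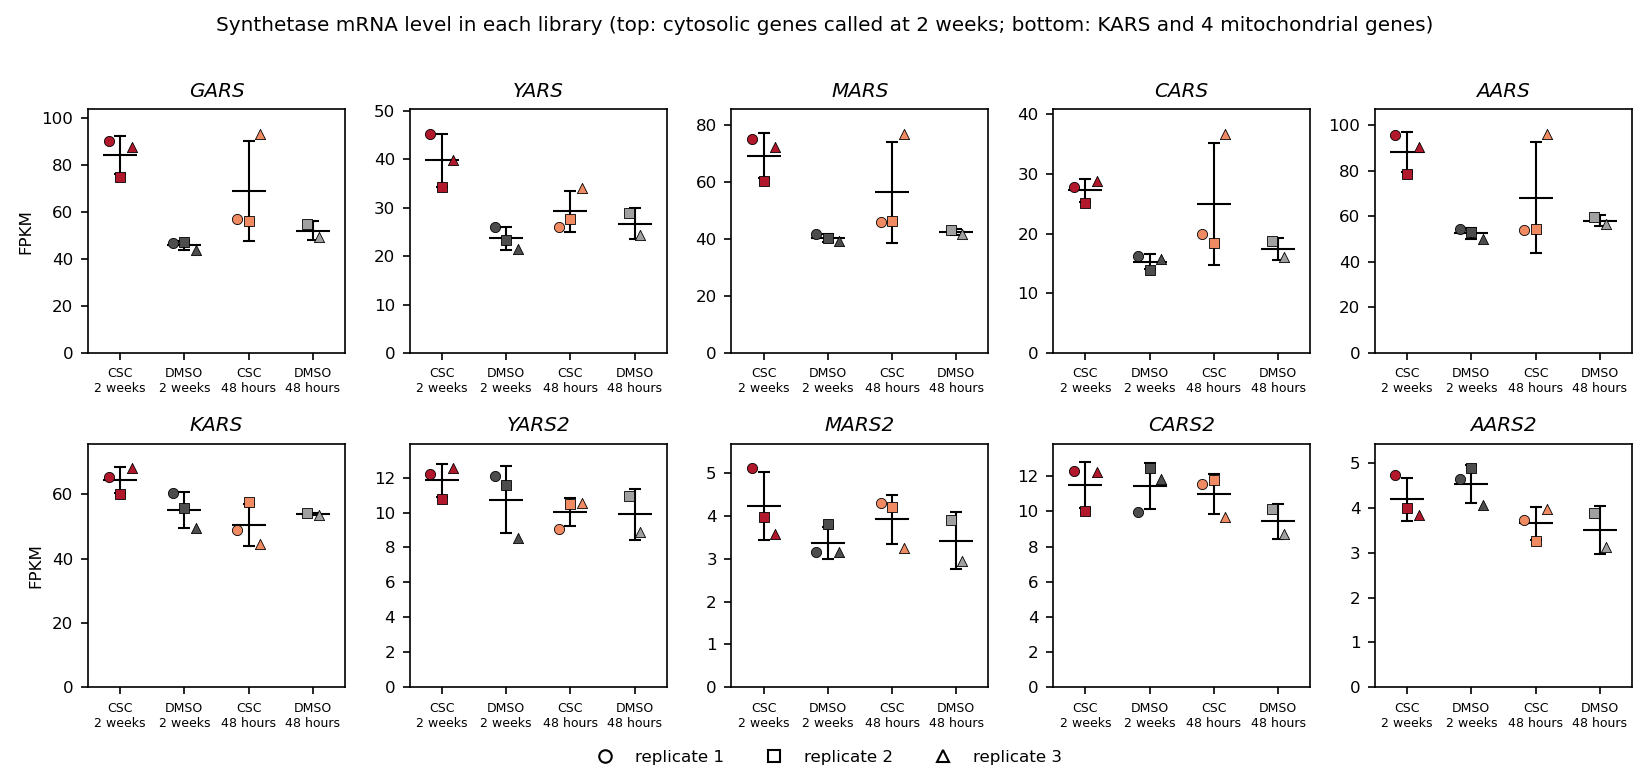
Each panel plots the FPKM of 1 gene (vertical axis) in the 11 libraries by group, with circles, squares and triangles for replicates 1, 2 and 3 and a bar for the mean and SD. In the top row, all CSC libraries of 2 weeks lie above all DMSO libraries of 2 weeks, and CSC 48 hours replicate 3 lies above the other 48-hour libraries; in the bottom row the 2-week groups overlap.

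The mitochondrial partners of these genes overlapped between the groups. AARS2 had 4.75, 3.99 and 3.85 FPKM in CSC libraries at 2 weeks and 4.66, 4.90 and 4.07 FPKM in DMSO libraries, a log2 difference of -0.10 ± 0.13 (SE). CARS2 had 12.3, 10.0 and 12.2 FPKM in CSC libraries and 9.95, 12.5 and 11.9 FPKM in DMSO libraries, a log2 difference of 0.01 ± 0.13 (SE). In these 2 genes the average hardly moved.

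MARS2 had 5.13, 3.99 and 3.58 FPKM in CSC libraries at 2 weeks and 3.15, 3.81 and 3.16 FPKM in DMSO libraries, a log2 difference of 0.28 ± 0.15 (SE). YARS2 had 12.2, 10.8 and 12.6 FPKM in CSC libraries and 12.1, 11.6 and 8.54 FPKM in DMSO libraries, a log2 difference of 0.15 ± 0.14 (SE). IARS2 had 75.6, 75.2 and 66.6 FPKM in CSC libraries and 81.1, 75.9 and 72.6 FPKM in DMSO libraries, a log2 difference of -0.08 ± 0.10 (SE). None of the 5 partners was called, with limma adjusted p between 0.281 and 0.967, and each interval still allows a change of some size: for AARS2 the 95% interval ran between -0.38 and 0.17 on the log2 scale.

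Among the remaining cytosolic genes, IARS fell just outside the threshold. It had 97.4, 82.5 and 92.2 FPKM in CSC libraries at 2 weeks and 73.2, 67.5 and 61.9 FPKM in DMSO libraries, without overlap, and a log2 difference of 0.42 ± 0.11 (SE) at a limma adjusted p of 0.0508. SARS, the serine enzyme, followed with 39.0, 29.1 and 34.7 FPKM in CSC libraries against 26.0, 24.2 and 21.8 FPKM in DMSO libraries, a log2 difference of 0.50 ± 0.16 (SE) at a limma adjusted p of 0.0824. WARS, LARS, NARS and TARS had log2 differences of 0.28 to 0.32 and unadjusted p under 0.05 without being called. At the low end stood QARS, the glutamine enzyme, at 0.04 and RARS, the arginine enzyme, at 0.12. As deposited, all 20 cytosolic differences were above 0 (17 to 19 under the 3 other scalings tried), and 13 of the 20 had no overlap between the groups with CSC higher. In the mitochondrial set 14 of 16 differences were above 0 as deposited (9 to 12 under the other scalings), and 1, that of SARS2, had no overlap. Over all genes tested, 20.3% had CSC libraries entirely above DMSO libraries and 9.84% entirely below.

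SARS2, the mitochondrial serine enzyme, had 15.0, 13.8 and 17.3 FPKM in CSC libraries at 2 weeks and 11.7, 11.3 and 13.2 FPKM in DMSO libraries. TARS2, the mitochondrial threonine enzyme, had 11.1, 9.64 and 9.54 FPKM in CSC libraries and 9.69, 7.93 and 7.56 FPKM in DMSO libraries, so that a DMSO library reached above the CSC ones at 9.54 and 9.64. These 2 mitochondrial genes had unadjusted p under 0.05, with log2 differences of 0.33 ± 0.13 and 0.26 ± 0.11 (SE) and limma adjusted p of 0.147 and 0.180.

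The median log2 difference at 2 weeks was 0.29 in the cytosolic set, 0.14 in the mitochondrial set and 0.09 over all genes tested, of which 65.1% were above 0. Part of this common offset depends on how libraries are scaled: scaling to a common FPKM sum put the median of all genes at -0.04, and the median-of-ratios scaling put it at 0.00. Relative to the median of all genes, the cytosolic median stood 0.20 higher as deposited, 0.19 higher after median-of-ratios scaling and 0.18 higher after scaling to a common sum, while the mitochondrial median stood 0.04 higher under all of these scalings. The mitochondrial offset moved with single libraries of 2 weeks, standing at 0.02 when DMSO replicate 3 was dropped and at 0.09 when CSC replicate 3 was dropped, and it was -0.0037 with library weights. Scaling to a common sum left 17 of 20 cytosolic and 9 of 16 mitochondrial differences above 0. It also turned the balance of calls over all genes, with 264 higher and 486 lower, against 376 higher and 300 lower as deposited.

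The number of called cytosolic genes rested on single libraries, while the size of the differences did not. Among the DMSO libraries of 2 weeks, leaving out replicate 1 or 2 gave 2 called genes, and leaving out replicate 3 gave 0. Among the CSC libraries of 2 weeks, leaving out replicate 1 or 3 gave 1, and leaving out replicate 2 gave 10. The higher calls over all genes moved too, to 73 of 12483 without DMSO replicate 3 and 1310 of 12477 without CSC replicate 2. They were 376 of 12506 with all libraries. With a DMSO library of 48 hours left out, whichever it was, 3 were called, and with replicate 3 of CSC at 48 hours left out, a library that stood apart, 7 were called. With each library left out in turn, the log2 change of GARS stayed between 0.82 and 0.95 and that of YARS between 0.64 and 0.83, and YARS was called in 10 of these 11 fits. Median-of-ratios and common-sum scaling each called 3 genes, without AARS and CARS, and quantile normalization called 2, GARS and YARS. Over all genes these scalings called 289, 264 and 310 higher, in that order.

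**Figure D2:**
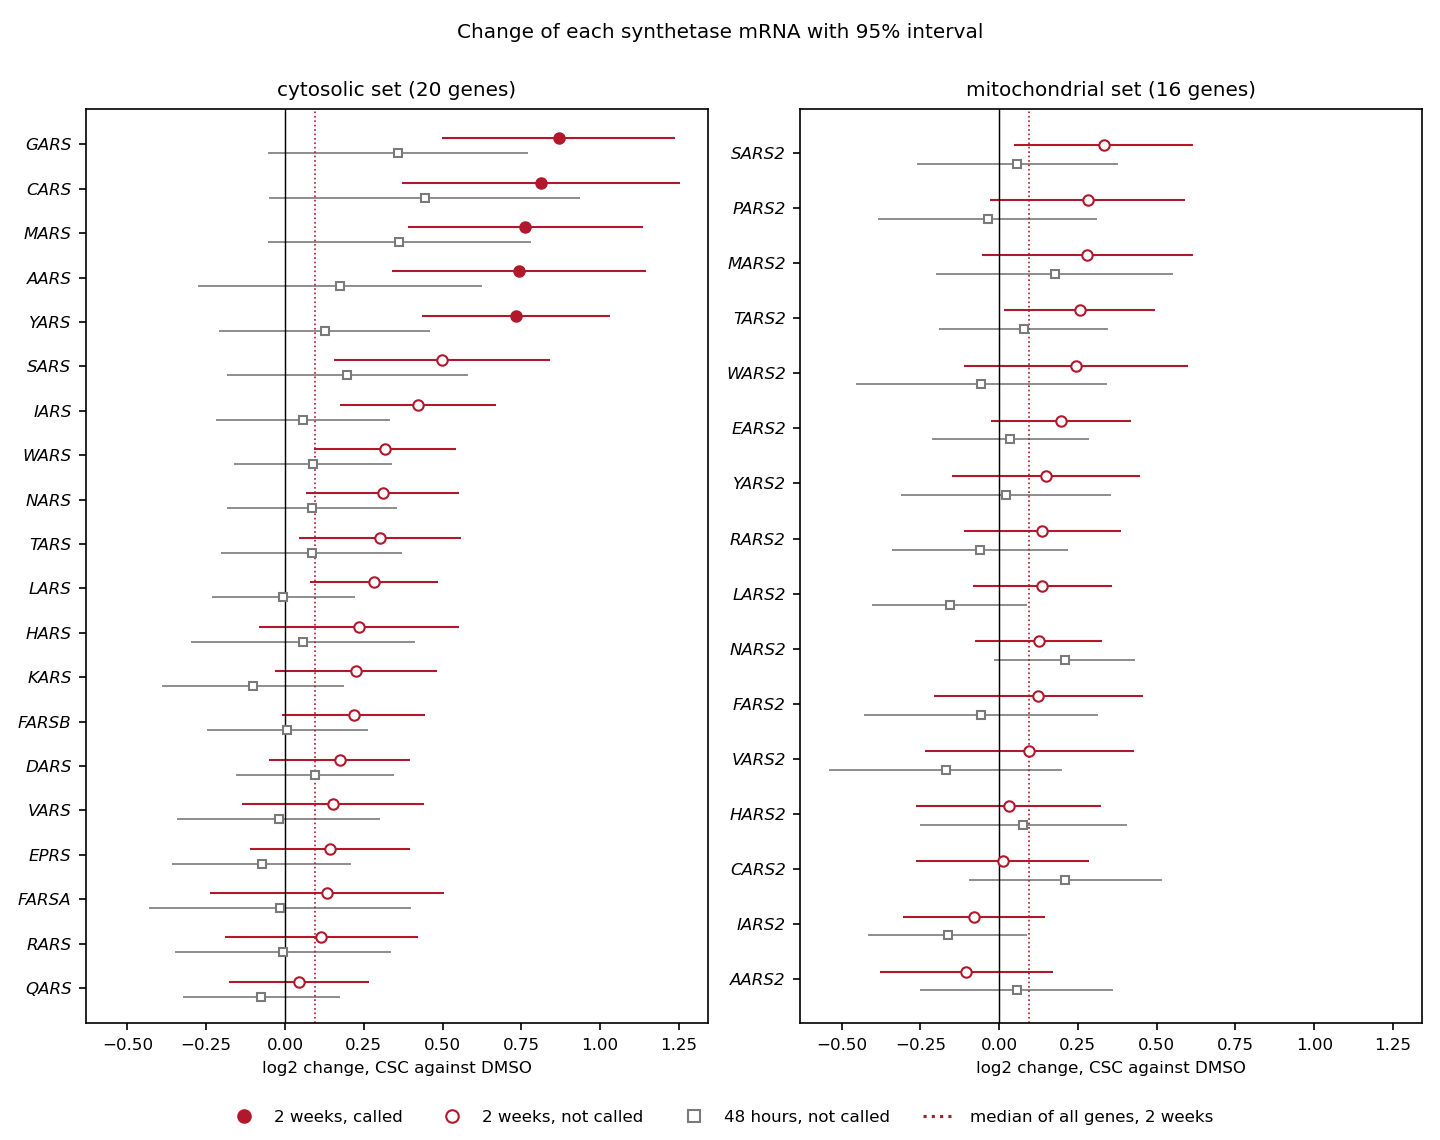
For each cytosolic (left) and mitochondrial (right) gene, the horizontal axis gives the log2 change of CSC against DMSO with its 95% interval, at 2 weeks (circles, filled where called) and at 48 hours (grey squares). The 5 filled circles, at 0.73 to 0.87, are all cytosolic, and every 48-hour interval spans 0.

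Grouped by family traits, the genes that rose were spread over both structural classes. Of the cytosolic class I genes 3 of 10 rose (CARS, MARS and YARS; median of the 10, 0.30), and of the cytosolic class II genes 2 of 10 rose (AARS and GARS; median 0.27). In the multisynthetase complex 1 of 8 genes rose, with a median of 0.20, and outside it 4 of 12, with a median of 0.31. A list of 12 cytosolic synthetases that are often reported as ATF4-induced held all 5 genes that rose. Its median log2 difference was 0.46 and the groups did not overlap in 12 of 12. In the other 8 cytosolic genes 0 rose, the median was 0.16 and 1 had no overlap. Over all genes tested, 3.01% were called higher and 20.3% had CSC libraries entirely above DMSO libraries. So 0 called and 1 without overlap do not make these 8 genes stand out. The list of 12 was drawn up with results of these libraries known, so its count is a description and not independent evidence.

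The genes around the enzymes were not called at 2 weeks. Of the 3 scaffold genes of the complex, EEF1E1 stood at a log2 difference of 0.27 and AIMP2 at 0.09. Of the 4 genes that prepare or modify mitochondrial charged tRNA, MTFMT, which formylates the initiator, stood at 0.23 and QRSL1, a subunit of the glutamine amidotransferase, at -0.12. Of the 7 other charging and editing genes, DTD1, which clears D-amino acids from tRNA, stood at 0.39 and AARSD1, an alanine editing factor, at 0.32. TARSL2, a threonine enzyme of the cytosol listed with them, had 3.14, 2.86 and 2.75 FPKM in CSC libraries and 4.001, 3.59 and 3.24 FPKM in DMSO libraries, with CSC entirely below DMSO, a log2 difference of -0.26 ± 0.18 (SE) and no call (limma adjusted p = 0.380). Among the 9 mitochondrial translation factors, the initiation factor MTIF3 came closest to a call, with 9.53, 7.98 and 10.2 FPKM in CSC libraries and 6.95, 6.23 and 5.78 FPKM in DMSO libraries, a log2 difference of 0.51 ± 0.15 (SE) at a limma adjusted p of 0.0663. MTIF2 stood at 0.31. The 9 factors had a median log2 difference of 0.25, against 0.29 in the cytosolic and 0.14 in the mitochondrial synthetase set. CSC libraries lay entirely above DMSO libraries in 4 of the 9 and entirely below in 0, against 20.3% and 9.84% of all genes tested. A higher median was thus not limited to genes serving the cytosol.

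Genes read as outputs of the ATF4 pathway were measured beside the synthetases, and 5 of 8 rose at 2 weeks, against 3.01% of all genes tested. These 8 genes were listed with earlier results of these data known, so the count is a description and not independent evidence. ATF4 itself had 156, 104 and 127 FPKM in CSC libraries and 81.1, 79.1 and 67.7 FPKM in DMSO libraries, a log2 change of 0.75 (limma adjusted p = 0.0410). ASNS, the asparagine synthetase, had 53.7, 43.0 and 54.5 FPKM in CSC libraries and 21.4, 18.7 and 17.8 FPKM in DMSO libraries, a log2 change of 1.36. The serine synthesis genes PHGDH and PSAT1 changed by 1.42 and 1.09 on the log2 scale, and CHAC1, which degrades glutathione, by 2.25. DDIT3, TRIB3 and SESN2 had log2 differences of 0.78, 1.07 and 0.93 and were not called. Whether ATF4 had a part in the synthetase values was not tested. The summed epithelial markers, nearly all KRT8 and KRT18, also differed without overlap, at 2096 to 2769 FPKM in CSC libraries and 3059 to 3554 FPKM in DMSO libraries. The other markers of that list, KRT19, EPCAM and CDH1, overlapped between the groups, and KRT19 averaged 29.6 FPKM in CSC against 27.4 FPKM in DMSO. Of all genes tested, 9.84% had CSC libraries entirely below DMSO libraries. The summed fibroblast markers, nearly all COL1A1, stood at 7.12 to 9.40 FPKM in CSC libraries and 10.8 to 11.7 FPKM in DMSO libraries. Their part in the synthetase values was not tested.

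ATF4 acts on its targets through the C/EBP-ATF response element, so the start regions of the synthetase genes were searched for the core of that element. RefSeq windows of GRCh38.p14, 300 bases long with 250 bases before and 50 from the annotated start onward, were matched for 30 of the 36 members; DARS, LARS, VARS, YARS, AARS2 and VARS2 had none. On either strand, TGATGNAA was found in 6 of 16 cytosolic windows (AARS, CARS, IARS, MARS, NARS and TARS), in 1 of 14 mitochondrial windows (YARS2), and in 1003 of 27305 windows of all genes, or 3.67%. The 6 cytosolic matches read TGATGCAA on one strand or the other, a stricter form noticed after the matches were seen, which stood in 0.923% of all windows and in 0 of 14 mitochondrial ones. With the annotated start at position 0, the first base of the match lay at -187 in AARS and within 14 bases of the start in the other 5 genes. The stretches below show that shared element, in capitals, in the 5 genes with the core that lead by call and p, and 2 mitochondrial starts without it; each is 100 bases long and read 5′ to 3′ on the gene's strand.
MARS, chr12:57487998-57488097, plus strand: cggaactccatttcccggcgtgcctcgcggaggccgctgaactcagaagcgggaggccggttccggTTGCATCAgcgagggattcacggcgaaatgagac
CARS, chr11:3057394-3057493, minus strand: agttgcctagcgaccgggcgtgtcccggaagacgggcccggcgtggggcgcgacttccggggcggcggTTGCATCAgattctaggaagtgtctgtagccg
AARS, chr16:70289640-70289739, minus strand: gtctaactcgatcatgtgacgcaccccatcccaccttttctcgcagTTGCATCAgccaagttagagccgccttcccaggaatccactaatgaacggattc
IARS, chr9:92293668-92293767, minus strand: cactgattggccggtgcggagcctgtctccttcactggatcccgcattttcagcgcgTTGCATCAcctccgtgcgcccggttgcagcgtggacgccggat
NARS, chr18:57621807-57621906, minus strand: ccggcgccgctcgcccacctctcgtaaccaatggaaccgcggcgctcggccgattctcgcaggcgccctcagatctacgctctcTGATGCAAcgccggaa
SARS2, chr19:38930734-38930833, minus strand: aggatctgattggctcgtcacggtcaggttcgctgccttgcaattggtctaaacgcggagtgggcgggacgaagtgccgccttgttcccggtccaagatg
TARS2, chr1:150487349-150487448, plus strand: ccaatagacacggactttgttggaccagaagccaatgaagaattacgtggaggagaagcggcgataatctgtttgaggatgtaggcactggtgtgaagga

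Set beside the expression values, 3 of the 6 cytosolic genes with the core had risen at 2 weeks (AARS, CARS and MARS), and the 6 had log2 differences between 0.30 and 0.81 with a median of 0.58. Of the 10 cytosolic genes whose window lacks it, 1 had risen, and the median was 0.22. That gene was GARS, the largest change of all, so these letters are not in the window of every gene that rose. YARS, which also rose, had no window to search. Over all genes tested 3.01% were called higher. All 6 genes with the core belong to the 12 often reported as ATF4-induced, a list drawn up with results known. The split is therefore a description and not independent evidence, and a part of the core in the synthetase values was not tested. The ETS-family element CCGGAAG stood in 8 of 16 cytosolic and 6 of 14 mitochondrial windows, against 10.7% of all windows; the windows of HARS and HARS2 overlap and share their matches. The full cyclic AMP response element TGACGTCA was in 0 of 16 cytosolic and 0 of 14 mitochondrial windows, against 1.98% of all. TNGCGTG, the core bound by the aryl hydrocarbon receptor that senses compounds of smoke, was in 0 of 16 cytosolic windows, 4 of 14 mitochondrial windows (CARS2, NARS2, PARS2 and RARS2) and 5.51% of all windows. GCATGCGC, the core of the NRF1 element, was in 0 of 16 cytosolic windows, 2 of 14 mitochondrial windows (MARS2 and YARS2) and 3.27% of all. A match is a description of these letters and not evidence of a bound site.

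**Figure D3:**
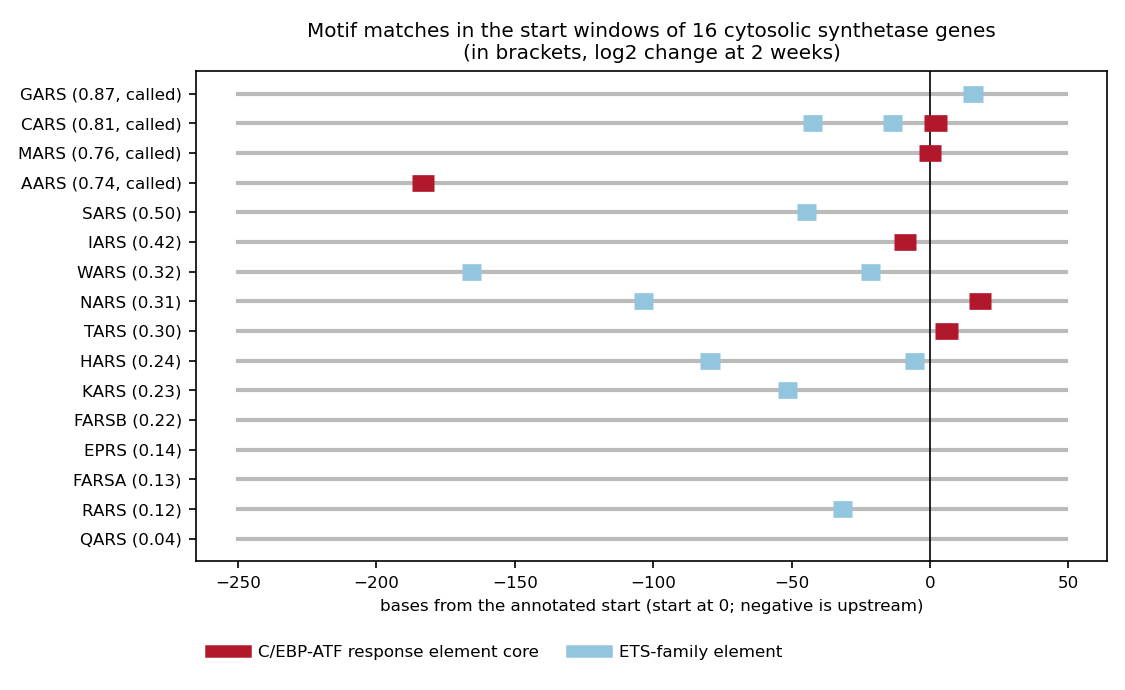
Horizontal lines are the 300-base start windows of 16 cytosolic genes, ordered by log2 change at 2 weeks (in brackets), with bases from the annotated start on the horizontal axis. Red marks are the C/EBP-ATF response element core and blue marks the ETS-family element; 5 of the 6 red marks lie within 14 bases of the start and that of AARS at -187.

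At 48 hours 0 of the 36 synthetase genes were called in CSC against DMSO by limma, and 0 had an unadjusted p under 0.05. Over all genes 0.104% were called higher and 0.184% lower, so few calls were made anywhere in this comparison, in which DMSO had 2 libraries. The median log2 difference was 0.07 in the cytosolic set, 0.03 in the mitochondrial set and 0.00 over all genes. These medians rested on single DMSO libraries as well: without DMSO replicate 2 they were 0.14 in the cytosolic and 0.07 in the mitochondrial set, and without DMSO replicate 3 they were 0.01 and -0.02. The groups did not overlap in 5 of the 36 genes, with CSC above both DMSO libraries in GARS, MARS and NARS2 and below them in IARS2 and LARS2. Over all genes 22.8% had groups without overlap in either direction. NARS2, the mitochondrial asparagine enzyme, had 9.93, 9.67 and 9.44 FPKM in CSC libraries and 8.11 and 8.52 FPKM in DMSO libraries, with a log2 difference of 0.21 ± 0.10 (SE). IARS2 had 61.8, 54.5 and 63.1 FPKM in CSC libraries and 65.3 and 68.5 FPKM in DMSO libraries, with a log2 difference of -0.16 ± 0.12 (SE).

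The 3 CSC libraries of 48 hours were unlike each other in the cytosolic set, and replicate 3 stood apart. GARS had 56.8, 56.2 and 93.1 FPKM in CSC replicates 1, 2 and 3, against 55.0 and 49.1 FPKM in DMSO. AARS had 53.9, 54.4 and 96.3 FPKM in CSC libraries and 59.7 and 56.4 FPKM in DMSO libraries. CARS had 19.9, 18.4 and 36.7 FPKM in CSC libraries and 18.7 and 16.1 FPKM in DMSO libraries. In all 3 genes, replicates 1 and 2 lay close to DMSO and replicate 3 alone reached the level of the 2-week CSC libraries.

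MARS showed the same pattern, with 46.1, 46.4 and 77.0 FPKM in CSC libraries and 43.2 and 41.9 FPKM in DMSO libraries. YARS was nearer to the others, with 26.1, 27.7 and 34.1 FPKM in CSC libraries and 28.96 and 24.5 FPKM in DMSO libraries. In contrast, FARSA had its lowest value in replicate 3, with 19.6, 20.9 and 14.7 FPKM in CSC libraries and 21.1 and 16.1 FPKM in DMSO libraries. FARSB, HARS, KARS, RARS and VARS were also lower in replicate 3 than in the other 4 libraries of 48 hours.

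Of the 20 cytosolic genes, replicate 3 was the highest of the 5 libraries of 48 hours in 12 and the lowest in 6. Over all genes tested it was the highest in 30.1% and the lowest in 25.4%. The 12 genes in which it was highest were exactly the 12 often reported as ATF4-induced, a list drawn up with these libraries known. In the mitochondrial set it was the highest in 5 of 16 and the lowest in 4. Across the 20 cytosolic genes, its log2 difference from the other 4 libraries and the log2 change at 2 weeks had a Pearson r of 0.87 and a Spearman rho of 0.82. Across the 16 mitochondrial genes these were -0.06 and 0.01. These are descriptions across genes of the same libraries, which are not independent replicates. The 8 ATF4 pathway genes were also highest in that library by their median, 1.41 above the mean of the 11 libraries on the log2 scale, with DDIT3 at 34.5 FPKM against 2.99 and 3.98 FPKM in the other CSC libraries of 48 hours. Without it, 0 of the 36 genes were called at 48 hours and the cytosolic median was 0.02.

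**Figure D4:**
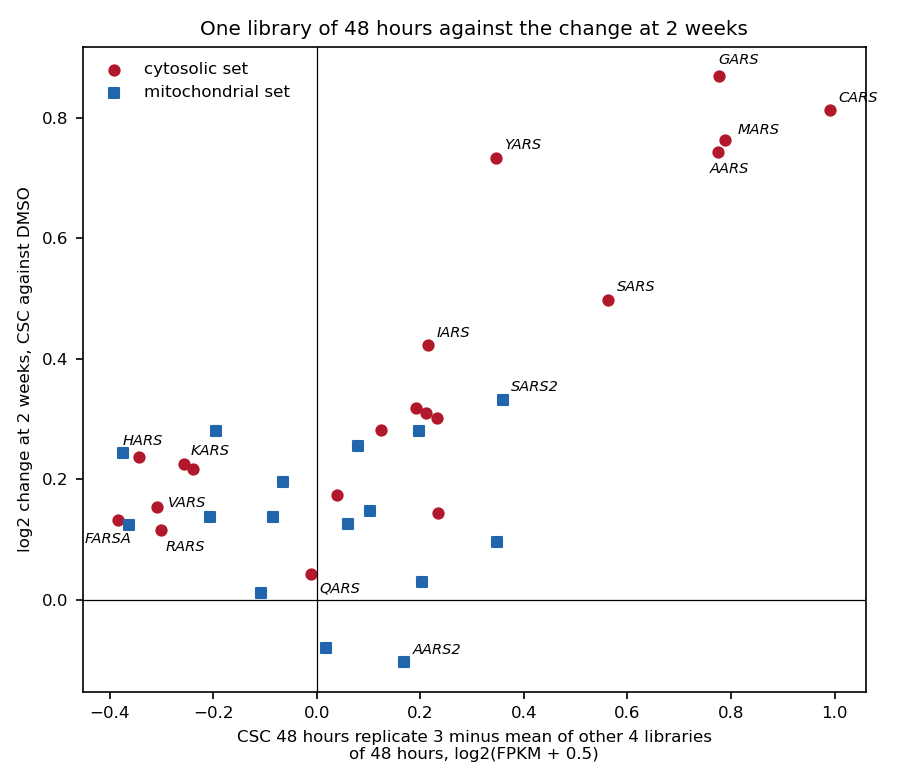
Each point is a synthetase gene, with the log2 difference of CSC 48 hours replicate 3 from the other 4 libraries of 48 hours on the horizontal axis and the log2 change of CSC against DMSO at 2 weeks on the vertical axis. Cytosolic genes (red circles) run between low left and high right (Pearson r 0.87), with CARS, MARS, GARS and AARS farthest out, and mitochondrial genes (blue squares) show no slope (r -0.06).

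The test of the difference between the 2-week and the 48-hour effect called 0 of the 36 genes, against 0.00800% of all genes called higher and 0.0320% called lower. So a larger effect at 2 weeks was not shown for any synthetase. The difference of the log2 effects was 0.61 ± 0.21 (SE) for YARS, the member with an unadjusted p under 0.05 (limma adjusted p = 0.640), 0.57 for AARS and 0.51 for GARS. All 20 cytosolic and 12 of 16 mitochondrial differences were above 0, with medians of 0.23 and 0.17, against 0.09 over all genes, as deposited. After scaling to a common sum 14 of 20 and 8 of 16 were above 0, with medians of 0.04 and -0.01, against -0.08 over all genes. After median-of-ratios scaling the medians were 0.13 and 0.07, and after quantile normalization 0.08 and 0.10.

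Time in culture was compared within each treatment. In DMSO, 2 weeks against 48 hours called 0 of the 36 genes, against 0.656% of all genes called higher and 0.112% lower. The median log2 difference there was 0.00 in the cytosolic set, 0.13 in the mitochondrial set and 0.09 over all genes as deposited, and under the 3 other scalings -0.14 to -0.10, 0.02 to 0.04 and -0.02 to -0.0006 in that order. AARS2, TARS2 and QARS had unadjusted p under 0.05, with log2 differences of 0.33, 0.30 and 0.25. Of the 5 genes called in CSC at 2 weeks, GARS and AARS were lower in DMSO at 2 weeks without overlap, and the others overlapped. GARS had 46.5, 47.2 and 43.6 FPKM there against 55.0 and 49.1 FPKM at 48 hours. AARS had 54.5, 53.0 and 50.0 FPKM against 59.7 and 56.4 FPKM. Of the 8 ATF4 pathway genes 7 were below 0, with a median of -0.28 and 0 called. Over all genes 68.3% were above 0 as deposited.

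In CSC, 2 weeks against 48 hours called 1 cytosolic gene, QARS, and 1 mitochondrial gene, TARS2, both higher, against 12.3% of all genes called higher and 1.38% lower. QARS had 33.6, 37.7 and 31.6 FPKM at 2 weeks and 25.4, 26.9 and 26.7 FPKM at 48 hours in CSC, a log2 change of 0.37 ± 0.10 (SE; limma adjusted p = 0.0369). TARS2 had 11.1, 9.64 and 9.54 FPKM at 2 weeks and 7.37, 6.65 and 7.25 FPKM at 48 hours in CSC, a log2 change of 0.48 ± 0.11 (SE; limma adjusted p = 0.0234). Both genes also stood higher at 2 weeks in DMSO, with QARS at 35.7, 33.7 and 30.3 FPKM at 2 weeks and 28.7 and 26.9 FPKM at 48 hours. The set medians were 0.29 in the cytosolic and 0.23 in the mitochondrial set, against 0.19 over all genes as deposited, and this direction depended on the scaling. The 3 medians were 0.09, 0.05 and 0.01 in that order after median-of-ratios scaling, -0.02, -0.05 and -0.09 after scaling to a common sum, and -0.03, 0.05 and 0.01 after quantile normalization. The balance of calls over all genes turned as well, with 1536 higher and 172 lower as deposited, 150 higher and 242 lower after median-of-ratios scaling, 84 higher and 458 lower after scaling to a common sum, and 122 higher and 200 lower after quantile normalization. Neither QARS nor TARS2 was called after any of the 3 other scalings. The cytosolic count was 8 without CSC 48 hours replicate 3, 5 without CSC 2 weeks replicate 2, 1 without DMSO 2 weeks replicate 3, and 0 with any of the other 8 libraries left out. The mitochondrial count was 0 without CSC 48 hours replicate 2 or CSC 2 weeks replicate 1, and 2 without CSC 48 hours replicate 3 or CSC 2 weeks replicate 2. Higher calls over all genes were 1450 of 12446 without CSC 48 hours replicate 3 and 2452 of 12477 without CSC 2 weeks replicate 2. They were 257 of 12464 without CSC 48 hours replicate 2 and 114 of 12459 without CSC 2 weeks replicate 1.

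The balance between the compartments can be read in each library. The summed FPKM of the cytosolic set was 4.97, 4.66 and 5.21 times that of the mitochondrial set in CSC libraries at 2 weeks and 3.95, 3.89 and 3.86 times in DMSO libraries. At 48 hours it was 4.44, 4.74 and 5.29 times in CSC libraries and 4.50 and 4.24 times in DMSO libraries. The 2-week groups were separate, while the 48-hour groups overlapped, with CSC replicate 3 highest of all 11 libraries. These sums lean on IARS2, which made up 72.6 to 81.1 FPKM of mitochondrial sums of 178 to 195 FPKM in DMSO libraries at 2 weeks. In CSC libraries at 2 weeks it made up 66.6 to 75.6 FPKM of sums of 189 to 210 FPKM. On the log2 scale, relative to the mean of the 11 libraries, the cytosolic median exceeded the mitochondrial median by 0.11, 0.08 and 0.10 in CSC libraries at 2 weeks, against -0.09, -0.16 and -0.11 in DMSO libraries.

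**Figure D5:**
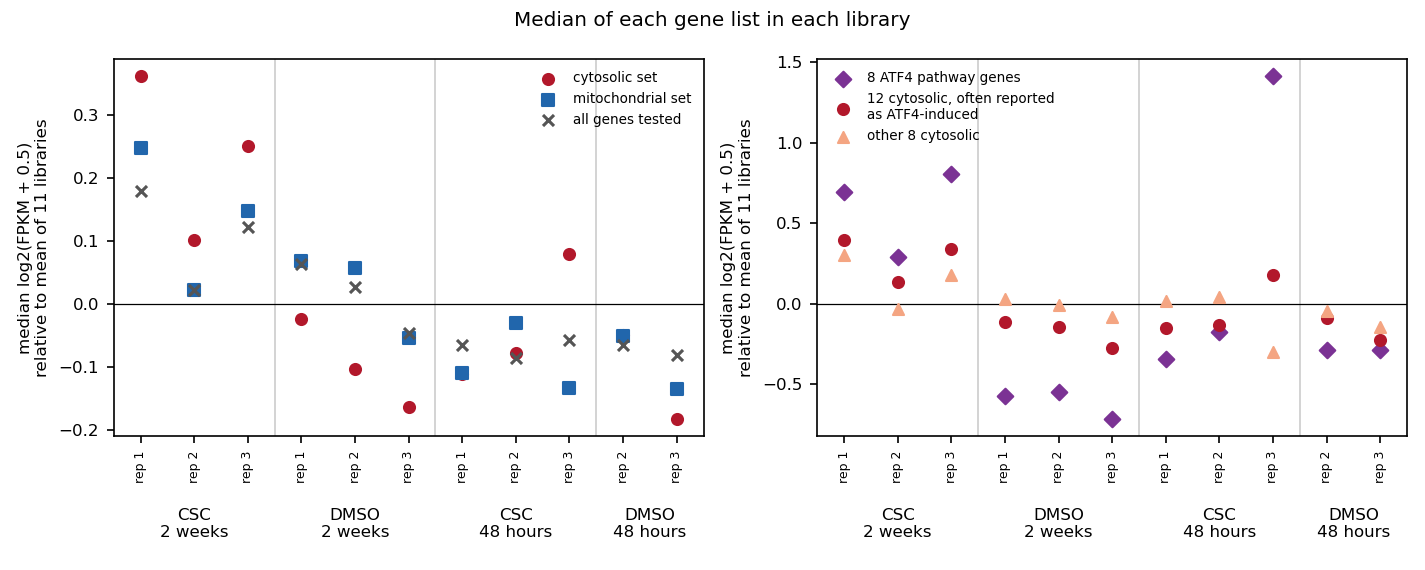
Each point is the median of a gene list in 1 library, as log2(FPKM + 0.5) relative to each gene's mean over the 11 libraries; the left panel shows the 2 compartments and all genes, and the right panel the 8 ATF4 pathway genes and the cytosolic set in 2 parts. The cytosolic points lie 0.08 to 0.21 above the mitochondrial points in the 3 CSC libraries of 2 weeks and in CSC 48 hours replicate 3, where the 8 pathway genes reach 1.41. In DMSO 48 hours replicate 2 the cytosolic point lies 0.0016 above the mitochondrial point.

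The ratio of a cytosolic gene to the mitochondrial gene for the same amino acid can be read within each library. There were 17 such pairs of genes: 13 share a symbol stem, EPRS, which serves glutamate and proline, pairs with EARS2 and with PARS2, and the 2 subunit genes FARSA and FARSB pair with FARS2. Pairs that share a gene are not independent of each other. The ratio stood higher in CSC than in DMSO at 2 weeks, on average, for 13 of 17 pairs, with a median log2 difference of 0.14. It did so without overlap for AARS, CARS, HARS, IARS, MARS and YARS over their partners. Among single genes tested, 20.3% had CSC libraries entirely above DMSO libraries and 9.84% entirely below, and ratios of other gene pairs were not computed. AARS, CARS, MARS and YARS are called genes, so their ratios are not separate evidence. HARS and HARS2 share bases, where their reads cannot be told apart. The alanine pair differed most: AARS stood at 20.2, 19.7 and 23.6 times the level of AARS2 in CSC libraries at 2 weeks and at 11.7, 10.8 and 12.3 times in DMSO libraries, a log2 difference of 0.86. The cysteine pair followed, with CARS at 2.26, 2.51 and 2.35 times CARS2 in CSC libraries and 1.63, 1.12 and 1.34 times in DMSO libraries. The isoleucine pair, the pair nearest to equal levels, was at 1.29, 1.10 and 1.38 in CSC libraries at 2 weeks and 0.903, 0.889 and 0.852 in DMSO libraries, so that IARS exceeded IARS2 in each CSC library and lay under it in each DMSO library of that time. The 4 pairs with a lower average in CSC were EPRS over PARS2 at -0.20, EPRS over EARS2 at -0.06, RARS over RARS2 at -0.03 and FARSA over FARS2 at -0.0019, with overlap in each. At 48 hours the average was higher in CSC for 13 of 17 pairs, with a median of 0.10. That count rested on CSC replicate 3: without it, a choice made after seeing the data, 9 of 17 were higher and the median was 0.02. The cysteine pair had the highest difference with all libraries, 0.23, and stood at -0.17 without replicate 3, where CARS over CARS2 was 1.73 and 1.56 in CSC libraries and 1.84 and 1.85 in DMSO libraries, against 3.797 in CSC replicate 3.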

How the data were processed

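Per the labels' protocols, libraries were made after Ribo-Zero Gold removal of ribosomal RNA, read on a HiSeq2000 instrument, and aligned with TopHat2 version 2.0.9 in BaseSpace against hg19. CASAVA version 1.7.1a5 is named in the submitters' processing notes. Quantifier, annotation and strand setting: not given in the sources used here. The authors deposited 1 FPKM per gene and locus for 11 libraries, with bounds. FPKM were summed over the loci of a symbol (VARS had 7 loci and VARS2 6, with 1 above 0 each), and 1 of 23609 symbols, with a failed estimate, was left out. limma version 3.58.1 in R version 4.3.3 (eBayes with trend) was fitted once to 4 groups on log2(FPKM + 0.5), for genes that reached 1 FPKM in 2 or more libraries. The procedure was tested on simulated data. Groups came from the titles. Named genes were the called members, the mitochondrial partners of the 6 smallest p, and up to 2 genes per accessory list by p; other members were summarised or are named beside a count. The members and lists were chosen with earlier results of these data known. Alternatives were other pseudocounts, filters, scalings, variance options, weights per library, a replicate block, and each library left out. Replicate numbers were not taken to pair the libraries.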

Additional observations from a re-analysis of the deposited data

How the results depend on the processing

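The direction of the 5 cytosolic genes called at 2 weeks held in all 23 other settings that gave a value. Over the 36 members, both CSC comparisons and those settings, 1514 of 1648 values kept their direction and side of the threshold, 34 lost a call, 20 gained one, 80 uncalled values changed sign and 0 called values did. The count of cytosolic genes called at 2 weeks was 2 without the filter on low values (184 of 19415 genes called higher over all). It was 3 under median-of-ratios scaling (289 of 12514), 3 under common-sum scaling (264 of 12530) and 2 under quantile normalization (310 of 12513). With library weights, 2477 of 12506 genes were called higher over all, 2 mitochondrial genes were called and the cytosolic count was 13. It ran between 0 and 10 with each library left out in turn. For 2 weeks against 48 hours in CSC, the cytosolic count was 2 with the filter at 5 FPKM, 2 with robust eBayes, 14 with library weights, 0 under each of the 3 other scalings, 0 when fitting just the compared libraries, 0 with GARS, KARS and QARS left out of the set, and 0 to 8 with libraries left out in turn. The mitochondrial count there was 0 under each of the 3 other scalings, 6 with library weights, 0 when fitting just the compared libraries, and 0 to 2 with libraries left out in turn. Higher calls over all genes in that comparison were 1536 of 12506 in the main fit and 3236 of 12506 with library weights. They were 1712 of 8752 with the filter at 5 FPKM, 1574 with robust eBayes and 49 when fitting just the compared libraries. The cause of these shifts was not tested.

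With the replicate number as a block, 6 cytosolic genes were called at 2 weeks, and 2 mitochondrial genes were called for 2 weeks against 48 hours in CSC. Higher calls over all genes with the block were 595 of 12506 and 2079 of 12506 in that order. Not every pair of same-numbered libraries deviated together (15 correlations of -0.20 to 0.31, median 0.05), although the 3 pairs of replicate 1 did, at 0.19, 0.22 and 0.31, so pairing was not taken as shown. Where leaving out a library leaves DMSO at 48 hours with 1 library, that library is assumed to vary like the other groups. Depth in reads is unknown.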
